A study of Xenopus laevis with 4 samples.

Results

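Notch signalling passes between touching cells. Delta and Jagged ligands on one cell bind the Notch receptor on its neighbour, the receptor is cut, and its intracellular domain enters the nucleus, where it joins the DNA-binding factor Rbpj and the coactivator Mastermind. In lateral inhibition a cell with active Notch makes less Delta, so that ligand-rich cells become spaced, and in the frog embryonic epidermis this process limits how many inner-layer cells become multiciliate cells or ionocytes. Nrarp is a small ankyrin-repeat protein that Notch induces and that dampens the pathway in turn.

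The genes described here are the Delta-type ligands dll1.L and dlc.L, the Jagged ligand jag1.L, the feedback inhibitor nrarp.S and the receptor notch1.S. They were taken as all probe sets whose only gene symbol on the platform is one of these 5, which gave 7 of the 32635 probe sets on the array. dll1.L (Entrez Gene 100337564) and nrarp.S (495317) have 2 probe sets each, and dlc.L (379238), jag1.L (399110) and notch1.S (394367) have 1 each. In the allotetraploid frog Xenopus laevis many genes exist as a pair of homeologs, told apart by the endings L and S. No probe set carried the other copy of any of the 5 genes as its symbol, while 16765 probe sets have no symbol and are unnamed here.

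RNA came from animal caps, the explanted presumptive ectoderm, of embryos injected with synthetic RNA at the 2-cell stage, and was harvested at the equivalent of stage 12. ICD RNA was injected for 2 arrays, DBM RNA for 1 and HMM RNA for 1. By common usage ICD stands for the Notch intracellular domain, which is active without ligand, and DBM for an Rbpj form that has lost DNA binding and so acts as a blocker. The labels leave HMM as an abbreviation. They name neither clutch nor batch, and uninjected caps were not analysed here, so each comparison is between injected caps. The labels do not say if the ICD arrays stem from separate cultures, so the spread that the p-values measure is that of these arrays and may be technical. That spread comes from the 2 ICD arrays alone, and limma applies it to the single DBM and HMM arrays as well.

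ICD replicate 1 was dim. Its 2% trimmed mean signal was 150.7, against 376.8 on ICD replicate 2, 408.9 on DBM and 382.1 on HMM. Its poly-A spike-ins averaged 33.1% of those on the remaining arrays, and its hybridization spike-ins 110%. All signals below are MAS5 signals rescaled to the same trimmed mean. All 19 ectoderm probe sets passed the filter on dim signals, a mean of at least 41.37. Their summed signal was 90180 and 65440 with ICD, 79680 with DBM and 68870 with HMM. By limma foxi4.2.L (1.33 on the log2 scale) and dlx5.L (1.10) were higher with ICD and krt12.4.S (-1.44) and grhl3.S (-1.44) lower. That is 2 higher and 2 lower of the 19, against 1.90% higher and 2.04% lower over all probe sets tested. The other copies did not pass, with foxi4.2.S from -0.53 to -0.18, krt12.4.L at -0.15 and grhl3.L at -0.68. cdh1.S, the epithelial cadherin gene, differed between the ICD arrays, with 2148 and 74.19, against 91.49 with DBM and 1246 with HMM. Summed over 8 mesoderm probe sets the signal was 149.8 and 360 with ICD, 353.1 with DBM and 203.3 with HMM. Over 12 endoderm probe sets it was 238.8 and 286.2 with ICD, 517.3 with DBM and 448.7 with HMM. Of these sums, gata5.S alone held 88.13 and 103.4 with ICD, 346.3 with DBM and 277.5 with HMM, and it was lower with ICD (-1.53, limma adjusted p = 0.0421). Its other copy gata5.L stood at 43.52 and 59.67 with ICD, 53.93 with DBM and 63.07 with HMM, and did not pass (-0.14). That is 1 lower of 2 endoderm probe sets tested, against 2.04% lower over all probe sets tested. Only 2 of the 12 endoderm and 3 of the 8 mesoderm probe sets passed the filter. Over 12 neural plate probe sets the summed signal was 6450 and 11840 with ICD, 3009 with DBM and 1970 with HMM. By limma 4 of the 11 tested were higher with ICD, against 1.90% of all probe sets tested. These were zic1.S (2 probe sets), sox3.S and otx2.L, while none of sox2.L, sox3.L, otx2.S, ncam1.L and ncam1.S passed. Summed neural plate signal was thus higher on both ICD arrays, and the part of these markers in the results below was not tested.

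rbpj.S (399453), which encodes the Notch effector, has 3 probe sets, and their signals are set here beside the DBM label. The second of them (Xl2.12006.1.A1_s_at) stood at 333.7 and 364 with ICD, 3583 with DBM and 370.5 with HMM. On DBM it was 10.1 times the average over the remaining 3 arrays. Its log2 difference of 3.21 between DBM and HMM ranked 11 among 19523 probe sets. The ending of its name marks probes that may match more than 1 transcript, so this signal may not be from rbpj.S alone. The other rbpj.S probe sets did not show this. The first stood at 1043 and 1142 with ICD, 1413 with DBM and 1147 with HMM, and the third at 207.8 and 144.1 with ICD, 129.7 with DBM and 152.7 with HMM. maml1.L, a Mastermind coactivator gene, stood at 456 and 405.8 with ICD, 368.4 with DBM and 407.8 with HMM.

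**Figure D1:**
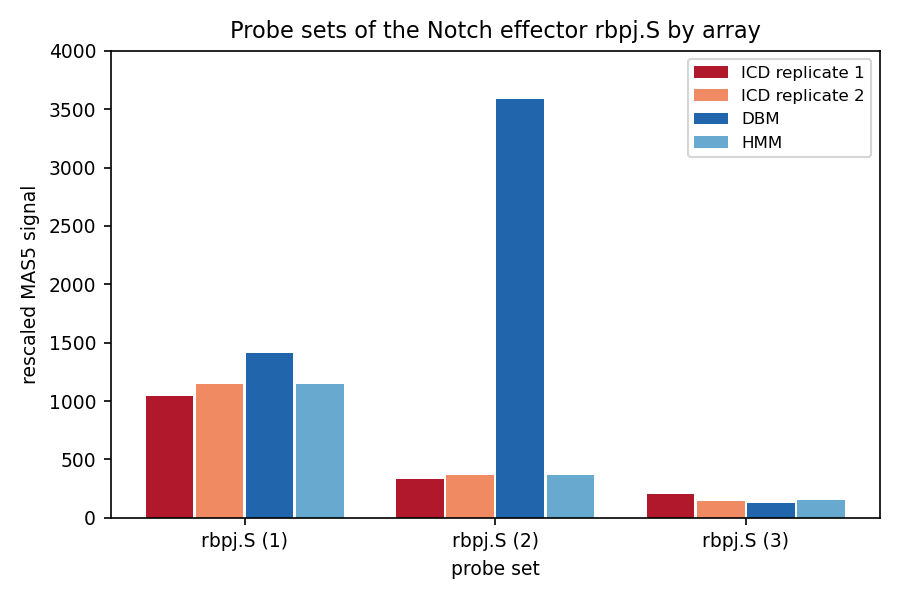
Rescaled MAS5 signal (linear axis from 0) of the 3 rbpj.S probe sets, with 1 bar for each array. The second probe set stands at 3583 on DBM and between 333.7 and 370.5 on the other arrays, while the other two probe sets differ less between arrays.

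The main comparison, of ICD with the average of DBM and HMM, asked how ligand, inhibitor and receptor transcripts differ between caps given the active Notch domain and the other caps. The Delta-type ligand genes dll1.L and dlc.L were lower with ICD, and the Jagged ligand gene jag1.L and the inhibitor gene nrarp.S were higher. The receptor gene notch1.S did not pass the test. Here and below, rose and fell mean higher or lower with ICD than with DBM and HMM. Without uninjected caps, a change by ICD cannot be told apart from an opposite change by DBM or HMM. Of the 7 probe sets, 3 rose and 3 fell by limma at an adjusted p of 0.05, which is 85.7% of them against 3.93% of the 19523 probe sets tested (1.90% higher and 2.04% lower). The ICD signals did not overlap those of DBM and HMM for 6 of the 7, and for 42.1% of all probe sets tested. The lowest signal of any of the 7 on any array was 44.71, above the level of 41.37 under which probe sets were left out by their mean signal, so none passed that filter through 1 group alone. In bulk RNA, a difference in the number of cells that make a transcript and in its amount per cell cannot be told apart.

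**Figure D2:**
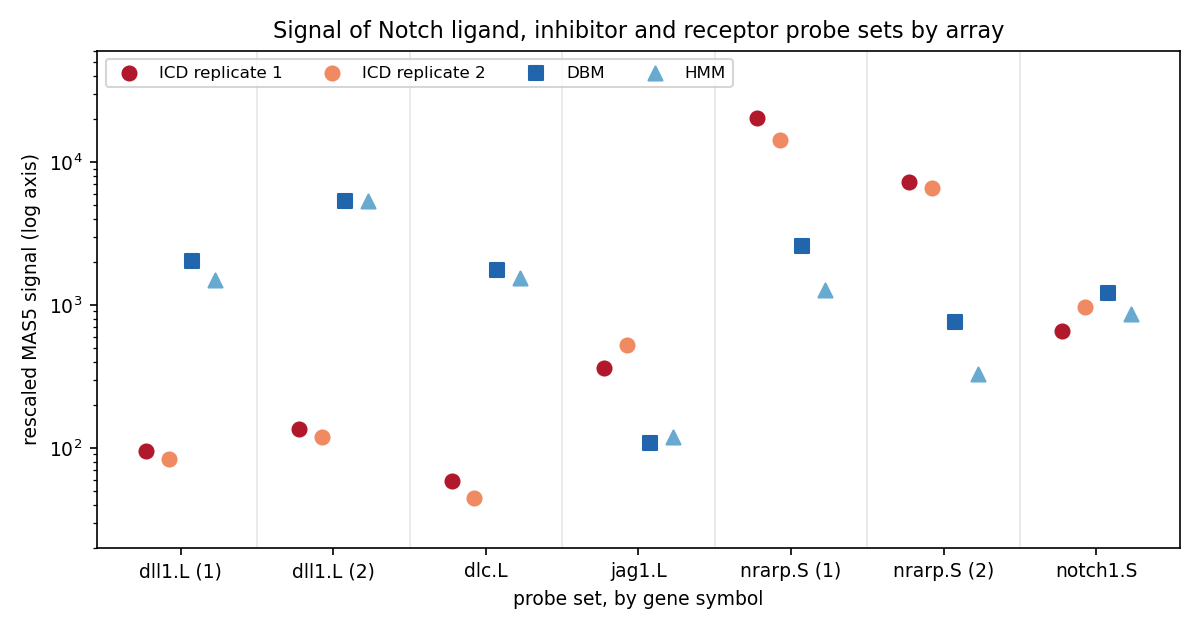
Rescaled MAS5 signal (log axis) of the 7 probe sets on each array; numbers in brackets tell probe sets of 1 gene apart. The ICD circles lie below the DBM square and HMM triangle for dll1.L and dlc.L, above them for jag1.L and nrarp.S, and among them for notch1.S.

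dll1.L encodes the Delta ligand best known for lateral inhibition in the frog embryo. Its first probe set (Xl2.14759.1.S1_at) stood at 95.35 and 83.73 with ICD, 2038 with DBM and 1497 with HMM. Its second (Xl2.54916.1.A1_s_at) stood at 135.4 and 119.9 with ICD, 5341 with DBM and 5296 with HMM. Both probe sets were low on both ICD arrays and high on DBM and HMM, with no overlap.

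The log2 difference of dll1.L was -4.04 ± 0.24 (SE, limma adjusted p = 7.56e-04), or 16.4-fold lower, on the first probe set, and -5.20 ± 0.21 (adjusted p = 3.15e-04), or 36.7-fold lower, on the second. The intervals of the estimates, -4.60 to -3.48 and -5.70 to -4.70, do not overlap, so the probe sets gave the same direction and different sizes. The ending of the second probe set's name marks probes that may match more than 1 transcript. Its difference was the lowest of all 19523 probe sets tested. It was also the lowest in 9 of 13 settings, the reported one included, and ranked between 2 and 6 from the lowest in the others.

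dlc.L is annotated as a gene of a second Delta-type ligand, whose zebrafish counterpart acts in somite formation. It stood at 58.61 and 44.71 with ICD, 1767 with DBM and 1532 with HMM, again without overlap. The log2 difference was -4.59 ± 0.26 (SE, adjusted p = 7.56e-04 by limma), or 24.0-fold lower, with a 95% interval of -5.21 to -3.96. Its size depended on the value added before taking logs. It was -4.98 when that value was 1 signal unit, and -3.80, outside the interval, when it was the whole median signal. All 3 Delta-type probe sets were thus lower with ICD.

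jag1.L, which encodes a ligand of the Jagged type, went the other way. It stood at 360.2 and 520.5 with ICD, 107.4 with DBM and 118.3 with HMM, so both ICD arrays were the higher ones. The log2 difference was 1.79 ± 0.31 (SE, 95% interval 1.05 to 2.52, limma adjusted p = 0.0287), or 3.45-fold. This call was lost with any 1 of the 4 arrays left out, where the difference was between 1.53 and 2.04 and the adjusted p between 0.0599 and 0.192. Here and below, fits without an ICD array took DBM and HMM as 1 group, since no spread would remain otherwise.

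nrarp.S, the feedback inhibitor gene, had higher signals with ICD on both of its probe sets. Its first probe set (Xl2.15331.1.S1_at) stood at 20190 and 14310 with ICD, 2596 with DBM and 1273 with HMM. Its second (Xl2.56653.1.S1_at) stood at 7207 and 6623 with ICD, 759.4 with DBM and 328.7 with HMM. The order ICD, DBM, HMM from high to low was the same on both probe sets.

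The log2 difference of nrarp.S was 3.21 ± 0.29 (SE, limma adjusted p = 3.05e-03), or 9.26-fold, on the first probe set and 3.74 ± 0.21 (adjusted p = 7.56e-04), or 13.3-fold, on the second. Their 95% intervals, 2.52 to 3.90 and 3.23 to 4.24, overlap. The differences ranked 49 and 28 from the highest among 19523 probe sets. The second probe set had an adjusted p of 0.062 when ICD replicate 2 was left out with DBM and HMM as 1 group, with a difference of 3.80.

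notch1.S encodes the receptor and was the 1 member that did not pass. It stood at 661.6 and 973.4 with ICD, 1219 with DBM and 869.4 with HMM, so the HMM value lay between the ICD values. The log2 difference was -0.35 ± 0.25 (SE, limma adjusted p = 0.694), with a 95% interval of -0.96 to 0.25. Whether this probe set also reads the injected ICD RNA was not tested. ICD replicate 1 minus ICD replicate 2 was -0.55 on the log2 scale, further apart than the ICD mean was from HMM (-0.11).

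Set against DBM alone, 5 of the 7 probe sets passed by limma (2 higher, 3 lower), as did 2.32% of all probe sets tested (0.840% higher, 1.48% lower). Against HMM alone, also 5 passed (2 higher, 3 lower), as did 1.74% of all (1.23% higher, 0.507% lower). Both comparisons use the same ICD arrays. dll1.L differed by -4.26 and -5.20 from DBM and by -3.82 and -5.19 from HMM on the log2 scale, in the order of its probe sets. dlc.L differed by -4.69 from DBM and by -4.48 from HMM.

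jag1.L differed by 1.85 from DBM (95% interval 0.95 to 2.75, limma adjusted p = 0.0659) and by 1.73 from HMM (0.83 to 2.63, adjusted p = 0.0918), and passed neither test. nrarp.S differed by 2.70 and 3.16 from DBM and by 3.72 and 4.32 from HMM, the largest adjusted p being 0.0184, and passed both. notch1.S differed by -0.59 from DBM (95% interval -1.33 to 0.15) and by -0.11 from HMM (-0.85 to 0.63), and passed neither.

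**Figure D3:**
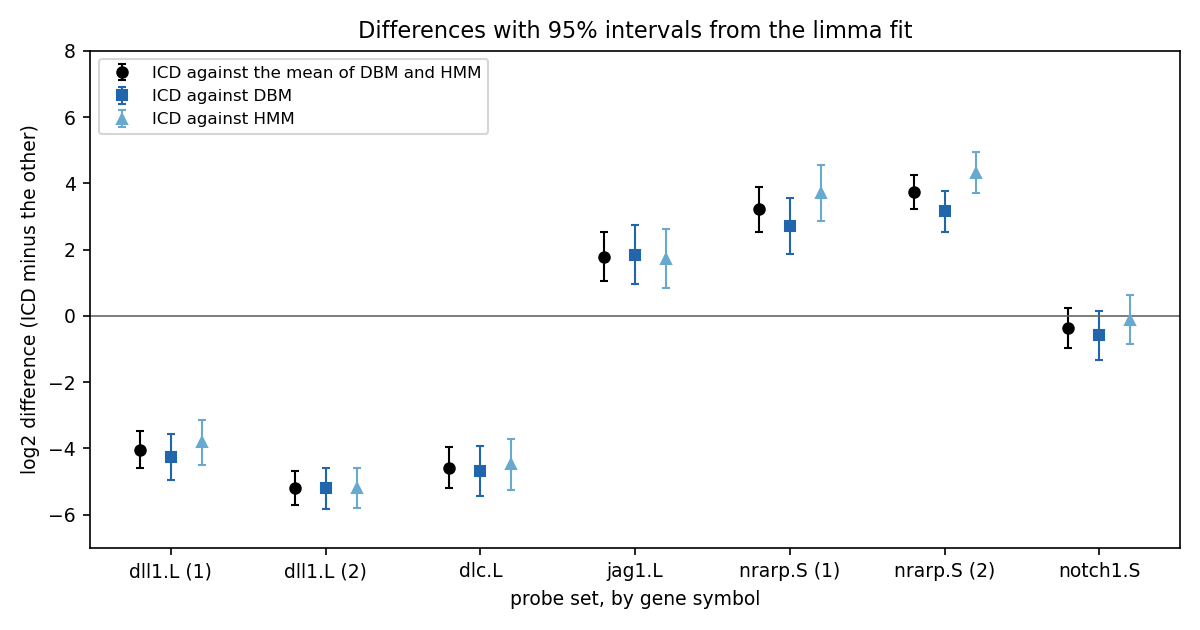
Log2 difference of ICD minus the mean of DBM and HMM (circles), minus DBM (squares) and minus HMM (triangles) for the 7 probe sets, with 95% intervals from the limma fit. The dll1.L and dlc.L intervals lie below 0, those of jag1.L and nrarp.S above 0, and those of notch1.S span 0.

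DBM and HMM have 1 array each, so their difference is given without a test. nrarp.S was 2.03-fold higher with DBM than with HMM on its first probe set and 2.24-fold on its second. The ICD arrays differed by 1.41-fold and 1.09-fold on the same probe sets, and 0 of the 7 probe sets were past 2-fold between them, as were 5.61% of all probe sets tested. Of all probe sets tested, 6.75% were past 2-fold between DBM and HMM in either direction and 3.86% were past it on the DBM side. The ligand and receptor genes were closer, with 1.36-fold and 1.01-fold for dll1.L, 1.15-fold for dlc.L and 1.39-fold for notch1.S, all higher with DBM, and 1.09-fold for jag1.L, lower with DBM. Past 2-fold were therefore the 2 nrarp.S probe sets and none of the other 5. The first nrarp.S probe set was at this limit, with a log2 difference of 1.02, and of 0.99, under 2-fold, when the value added before taking logs was the whole median signal. A higher signal with DBM than with HMM was not particular to nrarp.S. Of the 14 genes of the pathway list below that were higher with ICD, nrarp.S included, 11 had it, as did 47.6% of all probe sets tested.

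The pathway around these genes was taken from a list of ligands, receptors, processing and sugar-transferring enzymes, trafficking factors, the nuclear complex and the Hairy/Enhancer-of-split repressors. Each gene was read on its brightest tested probe set, which gave 38 genes, of which 14 rose, 3 fell and 21 did not pass, while 17 more genes of the list lay under the filter level. hes5.2.L, hes5.2.S and hes5.6.L, all among the 14, were under that level on DBM and HMM and passed the filter through ICD alone. Without them 11 of 35 rose and 3 fell. With no filter, all 55 genes were tested and again 14 rose and 3 fell by limma, which is 30.9% of the list with a median log2 difference of 0.12, against 1.59% and a median of 0.01 over all 32539 probe sets. Of the 17 repressor genes on the array 14 passed the filter, 11 rose and 1 fell, and these numbers of calls were the same without the filter. Among them hes5.2.L stood at 4120 and 4529 with ICD, 27.24 with DBM and 9.231 with HMM, and hey1.S at 6066 and 6034 with ICD, 136.9 with DBM and 114.2 with HMM. hes1.L was the one that fell, with 73.7 and 96.76 with ICD, 1506 with DBM and 601.1 with HMM, and its adjusted p was 0.0781 with ICD replicate 1 left out and 0.0944 with ICD replicate 2 left out.

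The other repressor genes that rose were hes4.S, with a log2 difference of 4.78 on its brightest probe set, and 8 more hes5 genes. In order of their log2 difference these were hes5.3.L (3.59), hes5.10.L (3.61), hes5.2.S (4.01), hes5.7.L (4.11), hes5.5.S (4.76), hes5.1.S (5.21), hes5.6.L (5.36) and hes5.1.L (5.92). hes5.3.L had an adjusted p of 0.0577 without ICD replicate 2. Not past the threshold were hes1.S, at -1.29 (limma adjusted p = 0.102), and hes4.L, at 0.96 (adjusted p = 0.107, and 0.0136 with quantile normalization). Another hes4.S probe set also passed (4.47). The remaining hes4.S probe sets, at 1.61 (limma adjusted p = 0.492) and 1.77 (adjusted p = 0.533), did not. Their signals differed between the ICD arrays, with 40.9 and 405.9 on the former and 8.529 and 267.4 on the latter. With 1 array left out, the differences of these probe sets ran from 0.185 to 3.02 and, where tested, from 1.68 to 3.46. The hes5 genes lie in a cluster of similar sequence, so probe sets may read more than 1 of them.

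Outside the 5 genes and the repressors, 19 genes were tested and 1 passed. This is 5.26%, near the 3.93% of all probe sets tested. It was dtx4.L, a gene of the Deltex family of ubiquitin ligases that act on Notch, at 815.5 and 865.9 with ICD, 313.6 with DBM and 321.1 with HMM. Its log2 difference was 1.36 ± 0.22 (SE, limma adjusted p = 0.0244), and it did not pass with any 1 array left out (adjusted p between 0.0578 and 0.216). Neither did it pass against DBM (adjusted p = 0.0604) or HMM (0.0744) alone.

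None of the 6 receptor processing genes passed by limma. furin.L, a protease gene, had the lowest value, -0.98 (adjusted p = 0.0914), and adam10.S, which encodes the protease that sheds the receptor's outer part, had -0.15. The gamma-secretase genes psenen.L, psenen.S, psen2.S and aph1a.S ran from -0.42 to -0.13. None of the 3 genes of enzymes that glycosylate the receptor passed either, with pofut1.L at -0.10, rfng.L at -0.12 and poglut1.S at 0.14. The fringe genes lfng.L and lfng.S were under the filter level and were not tested. mib1.L, which encodes a ligase that drives ligand uptake, had 0.15 on its brighter probe set and -0.65 on the other. In the nuclear complex rbpj.S had -0.22 on its brightest probe set and maml1.L had 0.14, and none of 6 genes passed. The second rbpj.S probe set did pass on all arrays (-1.69, adjusted p = 0.0102) but had -0.08 without DBM. Apart from the members, the ligand genes on the array were dner.L and dner.S, both under the filter level.

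**Figure D4:**
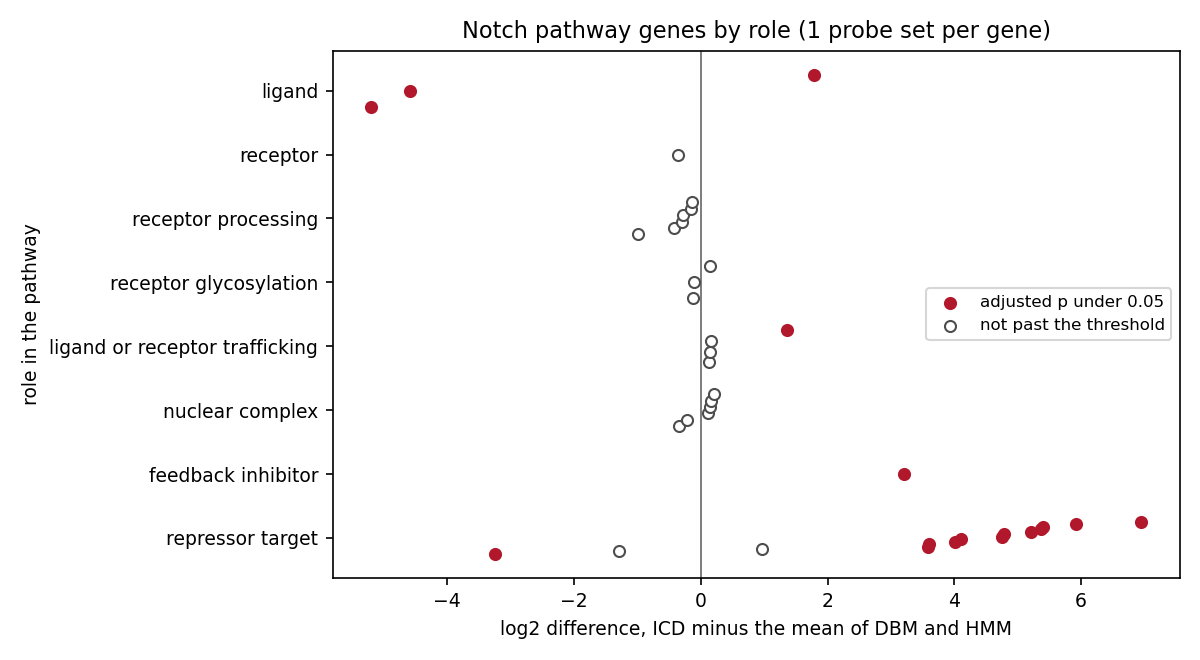
Log2 difference of ICD minus the mean of DBM and HMM for the 38 tested pathway genes, by role, with 1 point per gene. Filled points passed limma at an adjusted p of 0.05. They lie in the ligand, feedback inhibitor and repressor rows, with 1 more, dtx4.L, in the trafficking row.

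Proneural genes were mostly dim in these caps. Of 11 probe sets for 9 such genes, 10 lay under the filter level, among them those of neurog2, a proneural factor upstream of Delta in the neural plate. The remaining one was myt1.S, a zinc finger gene of the neuronal program, at 23.18 and 20.65 with ICD, 93.5 with DBM and 114.1 with HMM. It fell by 1.61 on the log2 scale (limma adjusted p = 0.0454), but its ICD signals were under the filter level, so it was tested only through DBM and HMM. The call was lost with no filter (adjusted p = 0.0748) and with any 1 array left out (between 0.109 and 0.195). neurog2.L stood at 28.43 and 9.711 with ICD, 14.11 with DBM and 15.36 with HMM.

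The genes nearest in pattern were found by the Euclidean distance between log2 values over the 4 arrays, each gene centred on its own mean, among 10291 named probe sets of other genes (10292 for genes with 1 probe set). This is a description over 4 arrays. Nearest to the first dll1.L probe set were val.L (distance 0.51), tsga10.L (0.51) and ubp1.L (0.52), and nearest to the second dlc.L (0.63), foxi1.L (0.69) and ubp1.L (0.86). Nearest to dlc.L were ubp1.L (0.39), foxi1.L (0.46) and val.L (0.57). foxi1.L, the regulator that specifies ionocytes, stood at 112.2 and 116 with ICD, 4523 with DBM and 2736 with HMM. ubp1.L, an ionocyte transcription factor gene, stood at 12.03 and 12.25 with ICD, 570.7 with DBM and 621.9 with HMM. The ICD signals of ubp1.L and tsga10.L were under the filter level, so both genes passed the filter only through DBM and HMM.

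Nearest to jag1.L were sox9.L (distance 0.15), zc4h2.L (0.17) and apex1.L (0.18). sox9.L, a transcription factor gene of the neural crest, stood at 152.9 and 237.1 with ICD, 40.71 with DBM and 38.31 with HMM. The DBM and HMM signals of sox9.L were under the filter level, so it passed the filter only through ICD. Nearest to the first nrarp.S probe set were crabp2.L (0.35), not.L (0.43) and prdm1.S (0.55), and nearest to the second prdm1.S (0.21), hspb7.L (0.37) and hes5.7.L (0.45). prdm1.S, which encodes a zinc finger transcription factor, stood at 865.6 and 928.9 with ICD, 97.45 with DBM and 30.63 with HMM on the probe set nearest to the second. Nearest to notch1.S were pgrmc1.L (0.03), pard3.S (0.04) and lamtor2.L (0.05), none of which passed the test. Genes that differ little between arrays are near each other by this measure whatever their level.

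**Figure D5:**
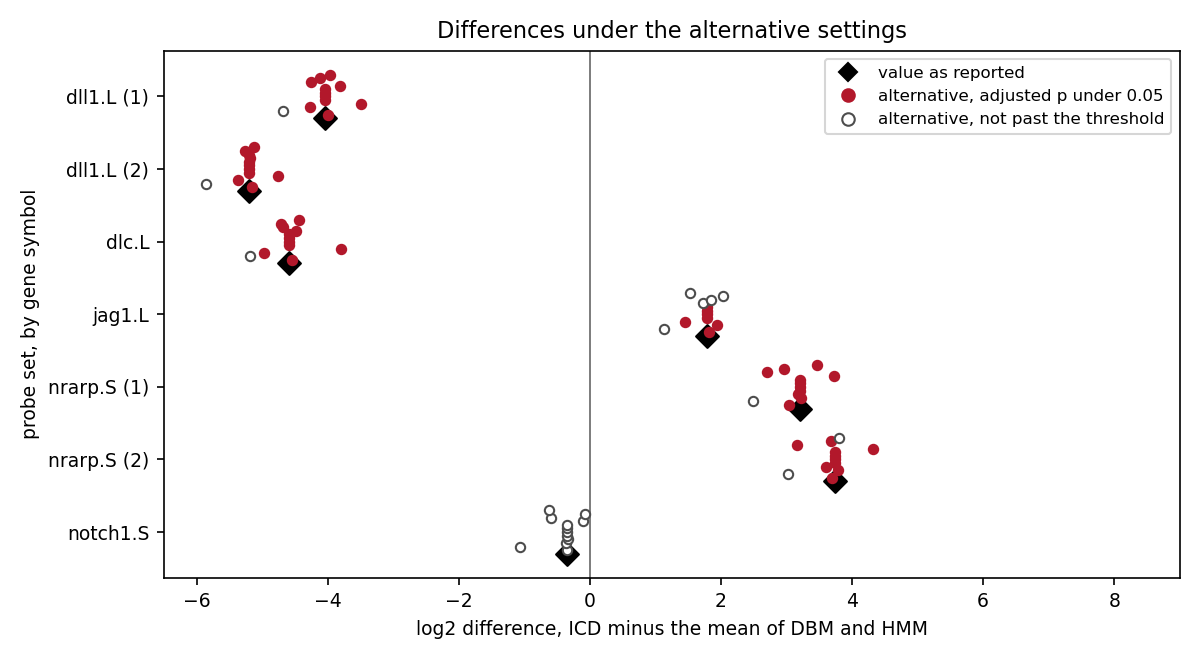
Log2 difference of ICD minus the mean of DBM and HMM for the 7 probe sets as reported (diamonds) and under 12 alternatives each (circles, filled where the adjusted p was under 0.05). No difference changed sign, and open circles of the 6 called probe sets are most frequent for jag1.L.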

How the data were processed

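The deposited values are MAS5 signals, 1 per probe set and array, on the linear scale of an intensity. The submitters' processing notes name MAS5 without a version. Detection calls were not used here, and all 4 value columns belong to a sample. Platform symbols were updated through RefSeq's gene table (Xenopus_laevis_v10.1) by Entrez identifier, which changed 2. In all, 15495 probe sets had 1 symbol, 279 several and 16765 none.

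Arrays were rescaled to their common 2% trimmed mean over 32539 non-control probe sets. The log2 scale is log2(signal + 17.99), the offset being the median signal (71.95) times 0.25, so changes of dim genes are understated. Probe sets whose mean fell under 41.37, the 40th percentile, were left out, leaving 19523.

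limma 3.58.1 (R 4.3.3) fitted a mean for each RNA by lmFit, with a trended eBayes, two-sided tests and Benjamini-Hochberg adjustment over all probe sets at 0.05. There were 1 residual and 5.82 prior degrees of freedom. On simulated data for ICD against the average of DBM and HMM (19523 probe sets), 100 of 100 log2 differences of 3 and 16 of 100 log2 differences of 1 were recovered. Of 122 calls in all, 6 were false. The simulated arrays had 1 spread for every probe set, taken from the ICD arrays. The real spread of DBM and HMM is not known, so these counts do not carry over to the calls above.

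The genes, lists and alternatives were chosen with earlier results of these data known. The rule named the members, their other copies, called pathway genes with all ligands, receptors and rbpj, the 3 nearest genes per member probe set, and defining cell type markers. Other named genes (furin.L, adam10.S, psenen.L, psenen.S, psen2.S, aph1a.S, pofut1.L, rfng.L, poglut1.S, lfng.L, lfng.S, mib1.L, maml1.L, hes4.L, hes1.S, myt1.S and neurog2.L) were chosen after their values were seen. Figures were drawn with matplotlib 3.10.9 (Python 3.11.15).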

Additional observations from a re-analysis of the deposited data

How the results depend on the processing

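Each of the 7 member differences was recomputed under 12 alternatives. Of these 84 values, 73 kept their direction and their side of the threshold, 11 were no longer past it, and 0 changed sign. With signals as deposited, not rescaled, the ICD arrays differ by their brightness. By limma 0 of 19527 probe sets then passed in any of the 3 comparisons. At an unadjusted limma p under 0.05 were 132 of the 19527 against the mean of DBM and HMM, 88 against DBM and 56 against HMM. Each count is a smaller share than the 0.05 that this cut-off would give if no probe set differed. Of the 7 member probe sets, 3 were under the cut-off in each comparison. On the signals not rescaled the differences were -4.68 and -5.86 for dll1.L, -5.19 for dlc.L, 1.13 for jag1.L and 2.485 and 3.02 for nrarp.S. The median of all probe sets was -0.67, and 0 of the pathway genes passed. jag1.L also lost its call without DBM (1.73), without HMM (1.85) and, in fits that pool DBM with HMM, without ICD replicate 1 (2.04) or ICD replicate 2 (1.53). The second nrarp.S probe set lost it without ICD replicate 2 (3.80). The cause of these losses was not tested.

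The count of probe sets past the threshold against the mean of DBM and HMM was 768. Pooling DBM and HMM into 1 group gave 411, and in that grouping 153 passed without ICD replicate 1 and 62 without ICD replicate 2. It was 324 without DBM and 424 without HMM. Against DBM it was 452, with 220 when dim probe sets were kept and 223 when eBayes had no trend. Against HMM it was 340, with 224 and 170 under the same alternatives. The 17 pathway genes called became 13 to 18 under every other alternative, with 14 when genes above the filter level on 1 side only were left out, an alternative chosen after seeing the data. Quantile normalization gave jag1.L an adjusted p of 0.0387 against DBM. Of 28 tested pathway probe sets that were not called, notch1.S as a member not counted, 17 changed sign under some alternative. These alternatives include the signals not rescaled, where the median of all probe sets was -0.665. No paired analysis was possible because the labels give no pairing and DBM and HMM have 1 array each. With 4 arrays, precision is limited by their number.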
